A study of Homo sapiens with 6 samples.

Results

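LoVo cells are an established line from a human colon adenocarcinoma. The enzymes described here are those that the cell uses to oxidise, reduce, hydrolyse or conjugate drugs, toxins and related endogenous compounds. Members were taken by gene symbol alone, but the classes were chosen with earlier results of these data known. The classes were cytochrome P450 enzymes (CYP, without CYP26A1, CYP26B1 and CYP51A1) and UDP-glucuronosyltransferases of the 1A, 2A and 2B groups (UGT). Further classes were glutathione transferases of the A, M, O, P, T, K and Z groups (GST), sulfotransferases (SULT) and aldo-keto reductases (AKR). The last were aldehyde dehydrogenases of the 2, 3, 7 and 9 groups (ALDH), carboxylesterases (CES) and the arylamine N-acetyltransferases NAT1 and NAT2. Of 22496 symbols with a value in at least 1 library, 116 belonged to these classes: 44 CYP, 14 UGT, 16 GST, 13 SULT, 15 AKR, 7 ALDH, 5 CES and 2 NAT symbols. A few are not enzymes themselves, such as the antisense RNA GSTT1-AS1 and the pseudogene GSTM2P1, and they were kept because the symbol rule takes them. The study set 3 libraries labelled SHARPIN knockout against 3 labelled non-target, all of LoVo cells with no treatment named. SHARPIN is a subunit of the ligase complex that builds linear ubiquitin chains. The labels do not say whether the knockout is 1 clone or a pool, how it was made, or whether replicates are separate cultures; p-values here reflect library-to-library spread alone, and that spread may be technical.

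Drug metabolism is usually described in phases. Phase I enzymes, chiefly the cytochromes P450, add or expose a reactive group; phase II enzymes such as the UGTs, GSTs and SULTs attach glucuronic acid, glutathione or sulfate so that the product can be exported. Intestinal epithelium carries part of this system, with CYP3A and UGT1A enzymes that act on swallowed drugs before they reach the liver. Several of the genes are switched by receptors that bind foreign compounds, among them the aryl hydrocarbon receptor AHR and the pregnane X receptor, whose gene is NR1I2, and by liver and gut factors such as HNF4A.

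Levels are FPKM, fragment counts scaled by transcript length and by library size, and so can be set side by side between genes. Low values moved in steps that put the depth at roughly 21000000 to 22500000 fragments a library. The sum of FPKM was 416852 to 522919 in knockout and 421585 to 431264 in non-target libraries. SHARPIN transcript stood at 7.55, 11.9 and 18.0 FPKM in knockout replicates 1, 2 and 3 and at 11.9, 13.9 and 12.9 FPKM in non-target replicates 1, 2 and 3. It did not pass the test (limma, adjusted p = 0.827). This level does not check the labels, since a frameshift may stop translation while the RNA persists. The epithelial markers EPCAM and CDX2 were present in every library, EPCAM at 132 to 197 FPKM in knockout and 192 to 198 FPKM in non-target libraries, and CDX2 at 18.6 to 24.6 and 16.0 to 22.5 FPKM in the same order of groups. Albumin (ALB), the defining hepatocyte product, was at 0.02 FPKM or less in all 6. Of 8 fibroblast markers, the summed level was 0.234 to 0.812 FPKM in knockout libraries, and 20.2, 7.97 and 7.78 FPKM in non-target replicates 1, 2 and 3. Lumican (LUM) made up most of it in non-target replicates 2 and 3, at 7.52 and 7.45 FPKM, while the collagen gene COL1A2 stood at 6.12 FPKM in non-target replicate 1 and at 0 in replicates 2 and 3. COL1A2 was at 0.139 FPKM or less in the knockout libraries. The part of these transcripts in the results below was not tested. Of 10 tested colon epithelial markers 2 rose and 3 fell, where 6.26% of all tested genes rose and 5.93% fell. The keratins KRT19 and KRT20 rose, with means of 710 and 17.1 FPKM in knockout and 260 and 3.19 FPKM in non-target libraries (limma, adjusted p = 0.00105 and 0.0168), and KRT20 kept its call in 3 of 6 fits that each left out 1 library. The adhesion protein gene CDH17 fell, with means of 5.78 FPKM in knockout and 57.3 FPKM in non-target libraries (adjusted p = 0.000524). CDX1 and the microvillus gene VIL1 fell too (0.0863 and 0.510 FPKM in knockout, 1.37 and 2.39 FPKM in non-target libraries; adjusted p = 0.000642 and 0.00142), though neither had a knockout library at 1 FPKM. The part of these marker changes in the enzyme results was not tested. The summed level of 8 hepatocyte markers was 0.237 to 0.347 FPKM in knockout and 0.813 to 1.07 FPKM in non-target libraries, and that of 7 immune and endothelial markers, mostly CD68, was 29.7 to 35.1 and 19.6 to 25.6 FPKM in the same order.

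The levels of drug-metabolising enzymes in these cells were spread over a wide range and led by glutathione transferases. Of the 116 symbols, 56 reached 1 FPKM in at least 3 of the 6 libraries and entered the test. The 9 UGT1A symbols among them are first exons of 1 locus that share their last exons, so they were counted as 1, which left 48 tested loci. GSTP1, the pi-class glutathione transferase, was the most abundant at 705 ± 149 FPKM in knockout and 608 ± 84.0 FPKM in non-target libraries (SD, n = 3 each). Next came GSTK1 of mitochondria and peroxisomes, ALDH2, GSTO1 and CYP2S1, with means over the 6 libraries of 98.4, 83.0, 81.5 and 65.5 FPKM. Of the 60 symbols not tested, 57 had no library at 1 FPKM, and 40 had a mean under 0.1 FPKM. Several main hepatic P450 enzymes were among the 60 not tested: CYP3A4 averaged 0.0785 FPKM over the 6 libraries, CYP1A2 0.0268, CYP2E1 0.2885 and CYP2D6 0.7575.

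The most frequent change was a decrease in the knockout libraries, in P450 enzymes, the glucuronosyltransferases, aldo-keto reductases and aldehyde dehydrogenases. Of 48 tested loci, 16 fell, 1 rose and 31 did not pass (limma on log2(FPKM + 1), Benjamini-Hochberg adjusted p below 0.05 over all 13092 genes tested). That is 33.3% falling and 2.08% rising, where 5.93% of all tested genes fell and 6.26% rose. The median log2 fold change was -0.29 over the 48 loci and 0.02 over all tested genes. The 3 knockout values lay below all 3 non-target values in 21 loci and above them in 3, where 15.7% of all tested genes lay below and 16.5% above. Of the 16 that fell, 7 (CYP27B1, CYP2B6, CYP3A7, CYP4F11, CYP4F12, SULT2B1 and UGT2B7) had no knockout library at 1 FPKM and so entered the test only through the non-target libraries, where a difference was built in. Among the 29 loci at 1 FPKM or more in all 6 libraries, 6 fell, or 20.7%, where 3.79% of all genes with that property fell. Of 18 loci with a mean of 10 FPKM or more, 4 fell and 1 rose, where 3.75% of all such genes fell and the share that rose was not counted. In bulk RNA, fewer cells that express a gene and less RNA per cell cannot be told apart.

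**Figure D1:**
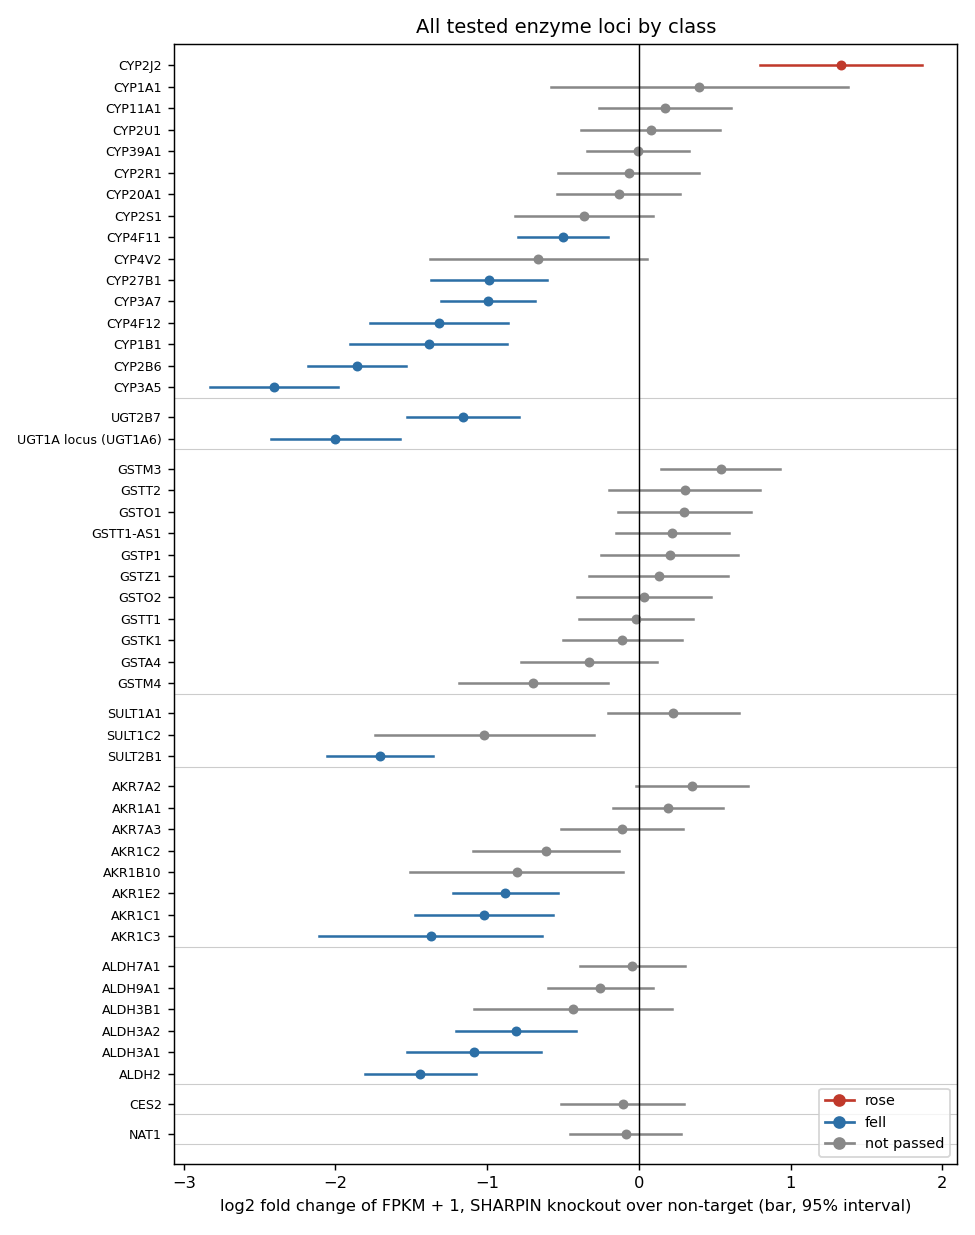
Log2 fold change of FPKM + 1, SHARPIN knockout over non-target, for the 48 tested loci, grouped from top to bottom as CYP, UGT, GST, SULT, AKR, ALDH, CES and NAT; bars are 95% intervals from limma with n = 3 per group, blue fell, red rose, grey did not pass. The 16 blue loci lie left of 0, CYP2J2 is the 1 red locus, and all 11 GST loci are grey.

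Glutathione transferases, the most abundant class, gave 0 calls of 11 tested loci in limma, and their median log2 fold change was 0.13. Of all tested genes 6.26% rose and 5.93% fell, and a count of 0 among 11 loci is near that background. At an unadjusted p below 0.05, 1 of the 11 was higher (GSTM3) and 1 lower (GSTM4). GSTP1 read 620, 618 and 876 FPKM in knockout replicates 1, 2 and 3, and 513, 638 and 673 FPKM in non-target replicates 1, 2 and 3. These groups overlapped, and the log2 fold change was 0.20 with a 95% interval of -0.25 to 0.66. The interval for GSTK1 was -0.50 to 0.28, for GSTO1 -0.14 to 0.74 and for the dehydroascorbate reductase GSTO2 -0.41 to 0.48. The mu-class genes GSTM3 and GSTM4 did not overlap between groups but missed the threshold. GSTM3 averaged 2.57 FPKM in knockout and 1.48 FPKM in non-target libraries (adjusted p = 0.0797), and GSTM4 averaged 18.0 and 29.7 FPKM in the same order (adjusted p = 0.0731). With the replicate number as a block in limma GSTM3 rose (adjusted p = 0.0212) and GSTM4 fell (adjusted p = 0.000457). Blocked values, here and below, are a weak basis for calling a single gene. That fit has 2 residual degrees of freedom, and 86.4% of genes took their spread wholly from other genes. The pairing of replicates 2 and 3 is also uncertain. GSTT1-AS1 is named as antisense to GSTT1, and no label or note states whether the counting used strand, so how reads of the pair were assigned is uncertain.

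The CYP3A enzymes, which oxidise the widest range of drugs, were far lower in knockout libraries. CYP3A5 (chromosome 7, 99245817 to 99277619, minus strand, GRCh37), a CYP3A enzyme of gut and liver, read 1.26, 0.780 and 0.553 FPKM in knockout replicates 1, 2 and 3, and 8.51, 8.51 and 9.24 FPKM in non-target replicates 1, 2 and 3. All knockout libraries lay far below all non-target libraries, and the knockout mean was 9.87% of the non-target mean. On the log2 scale CYP3A5 changed by -2.40 ± 0.19 (SE; adjusted p = 7.67e-05 in limma), the largest decrease among the 48 loci on this scale. CYP3A7, the fetal CYP3A enzyme which lies beside CYP3A5 in the cluster on the same strand (99302659 to 99332819), averaged 0.241 ± 0.0860 FPKM in knockout and 1.47 ± 0.144 FPKM in non-target libraries (SD, n = 3 each; adjusted p = 0.00125). CYP3A genes are close paralogs, so how the counting split their reads is uncertain. CYP3A4 and CYP3A43, which lie in the same cluster, were at 0.191 FPKM or less in every library and were not tested.

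Other P450 enzymes of drug and hormone metabolism fell as well. CYP2B6 (chromosome 19, 41497187 to 41524303), which oxidises bupropion and cyclophosphamide, read 0.059, 0.092 and 0.045 FPKM in knockout replicates 1, 2 and 3, and 2.53, 2.86 and 3.22 FPKM in non-target replicates 1, 2 and 3. Its knockout mean was 2.28% of the non-target mean, the lowest share among the 16 that fell (log2 fold change -1.86 ± 0.14, limma, adjusted p = 7.01e-05). All knockout values were under 0.1 FPKM and rest on few fragments, so this share and its rank are approximate. CYP1B1 (chromosome 2, 38294116 to 38337044), which oxidises estradiol and polycyclic hydrocarbons, read 0.850, 2.20 and 1.17 FPKM in knockout and 4.32, 5.99 and 5.18 FPKM in non-target replicates 1, 2 and 3 (log2 fold change -1.39 ± 0.23, adjusted p = 0.00352). The groups stood apart in both genes. CYP27B1, which makes the active form of vitamin D, averaged 0.594 ± 0.106 FPKM in knockout and 2.19 ± 0.520 FPKM in non-target libraries (SD, n = 3 each; adjusted p = 0.00434). CYP24A1, which breaks that hormone down, had too few libraries at 1 FPKM for the test and read 1.82, 0.583 and 0.533 FPKM in knockout and 0.262, 0.058 and 0.085 FPKM in non-target replicates 1, 2 and 3. The fatty acid hydroxylases CYP4F12 and CYP4F11, both in the CYP4F cluster of chromosome 19, averaged 0.420 and 0.476 FPKM in knockout and 2.61 and 1.09 FPKM in non-target libraries (adjusted p = 0.00244 and 0.0374). CYP4F11 had the lowest mean of the tested loci, 0.783 FPKM, and its call was lost without non-target replicate 2 (adjusted p = 0.201), non-target replicate 3 (0.143), knockout replicate 2 (0.0915) or knockout replicate 3 (0.0753), in limma without trend (0.0624), and with non-target replicates 2 and 3 averaged as 1 sample (0.158). On the other side of the filter, the carboxylesterase CES4A had 2 libraries at 1 FPKM and read 0.871, 2.47 and 2.13 FPKM in knockout and 0.850, 0.702 and 0.432 FPKM in non-target replicates 1, 2 and 3.

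CYP2J2 was the 1 locus that rose. This epoxygenase of arachidonic acid (chromosome 1, 60358980 to 60392445) read 22.8, 16.3 and 17.5 FPKM in knockout replicates 1, 2 and 3, and 10.02, 5.93 and 5.25 FPKM in non-target replicates 1, 2 and 3. Every knockout library lay above every non-target library, and replicate 1 was the highest of its group in both. The knockout mean was 2.67 times the non-target mean (log2 fold change 1.33 ± 0.24, limma, adjusted p = 0.00542), and CYP2J2 kept its call in each of the 6 fits that left out a library, the highest adjusted p being 0.0288. CYP2S1, the most abundant P450 enzyme here and 1 that metabolises retinoids, read 69.5, 50.8 and 51.4 FPKM in knockout and 59.2, 86.7 and 75.6 FPKM in non-target replicates 1, 2 and 3. The groups overlapped through replicate 1 of each (log2 fold change -0.36, 95% interval -0.81 to 0.09, limma, adjusted p = 0.308). CYP2S1 passed in 0 of the 6 fits that left out a library (adjusted p of 0.119 to 0.705), nor did it pass with the replicate block (0.120). A setting added after seeing the data left out both replicate 1 libraries, those that made the groups overlap. There the log2 fold change was -0.65 (limma, adjusted p = 0.0343), which does not count as a decrease because the choice followed the values. The vitamin D 25-hydroxylase CYP2R1, the sterol hydroxylase CYP39A1, the side-chain cleavage enzyme CYP11A1 and CYP2U1 did not pass, with log2 fold changes between -0.07 and 0.17.

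Transcripts of the main glucuronosyltransferase locus fell. The UGT1A locus (chromosome 2, 234526279 to 234681946, plus strand, GRCh37) encodes enzymes that conjugate bilirubin, phenols and many drugs, each with its own first exon joined to a common remainder. In the canonical transcripts 4 of 5 exons, 1479 bases, were common to all 9 genes, or 60.2% to 62.6% of their exonic bases. The deposited values of the 8 symbols other than UGT1A6 were close to each other. They spanned only 11.7 to 12.7 FPKM in knockout replicate 2 and 61.6 to 65.5 FPKM in non-target replicate 2. These 8 values therefore do not show which of their first exons was used. UGT1A6 lay above them in every library, at 18.5 FPKM in knockout replicate 2 and 104 FPKM in non-target replicate 2. Whether this excess came from its own first exon was not tested. UGT1A6, which stands for the locus here because its level was the highest, read 28.2, 18.5 and 24.6 FPKM in knockout replicates 1, 2 and 3, and 87.3, 104 and 100.04 FPKM in non-target replicates 1, 2 and 3. The groups stood far apart, with a knockout mean of 24.5% of the non-target mean (log2 fold change -2.001 ± 0.19, SE; limma, adjusted p = 0.000165). The mean of the 9 symbols in place of UGT1A6 gave a log2 fold change of -1.94 (adjusted p = 0.000172). UGT2B7, which glucuronidates morphine and steroids, read 0.154, 0.161 and 0.117 FPKM in knockout and 2.18, 1.38 and 1.20 FPKM in non-target replicates 1, 2 and 3 (adjusted p = 0.00152). UGT2B7 had no knockout library at 1 FPKM, so it entered the test only through the non-target libraries. UGT2A1, UGT2A2, UGT2A3 and UGT2B11 were at 0.036 FPKM or less in every library.

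**Figure D2:**
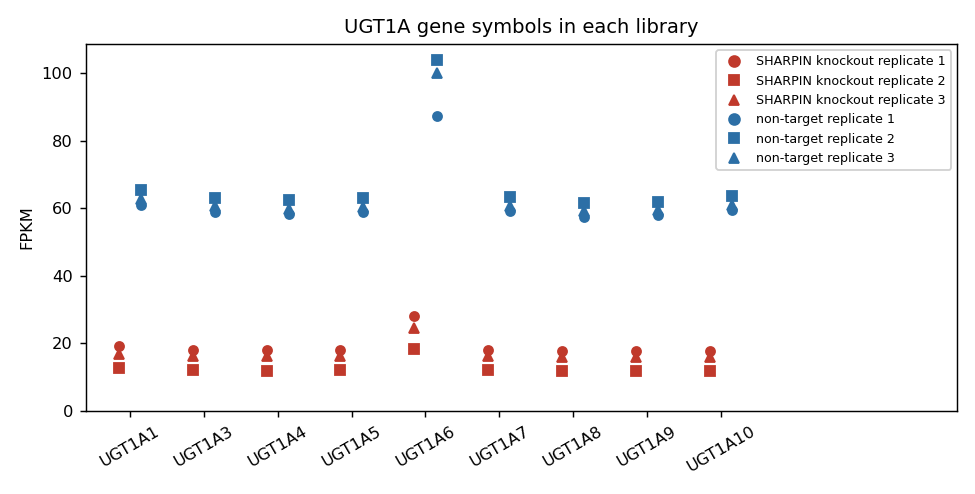
FPKM (linear axis from 0) of the 9 UGT1A symbols in each library, SHARPIN knockout in red left of non-target in blue, with circle, square and triangle for replicates 1, 2 and 3. The 8 symbols other than UGT1A6 lie between 11.7 and 19.2 FPKM in knockout and between 57.5 and 65.5 FPKM in non-target libraries.

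Promoters of the CYP3A pair are shown because CYP3A5 had the largest decrease on the log2 scale and CYP3A7 lies beside it and fell too, and the CYP1A1 promoter because that gene is the textbook target of AHR. Sequences are the 250 bases before the RefSeq start (GRCh38.p14). Capitals mark TATAAA, the TATA box, in CYP3A7 and CYP1A1, and GCGTG, the core of the element that AHR binds, in CYP1A1. The CYP3A5 window holds neither and is in lower case throughout. CYP3A5 lies at chr7:99679997-99680246 on the minus strand, CYP3A7 at chr7:99735197-99735446 on the minus strand and CYP1A1 at chr15:74725529-74725778 on the minus strand.
CYP3A5: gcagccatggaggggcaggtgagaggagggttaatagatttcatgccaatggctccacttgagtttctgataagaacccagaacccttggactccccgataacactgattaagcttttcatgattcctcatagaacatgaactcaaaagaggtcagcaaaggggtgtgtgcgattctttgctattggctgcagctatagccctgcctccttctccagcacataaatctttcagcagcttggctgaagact
CYP3A7: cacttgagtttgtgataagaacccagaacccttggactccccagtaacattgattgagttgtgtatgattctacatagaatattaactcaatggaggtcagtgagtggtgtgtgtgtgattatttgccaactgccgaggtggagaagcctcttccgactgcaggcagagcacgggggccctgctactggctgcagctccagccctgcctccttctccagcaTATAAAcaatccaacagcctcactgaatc
CYP1A1: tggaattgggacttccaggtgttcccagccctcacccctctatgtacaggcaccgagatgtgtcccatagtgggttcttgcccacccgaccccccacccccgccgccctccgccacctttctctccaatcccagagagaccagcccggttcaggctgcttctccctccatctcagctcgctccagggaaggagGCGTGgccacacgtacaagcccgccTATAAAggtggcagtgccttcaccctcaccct
RefSeq promoters matched 82 of the 116 symbols, and a symbol was counted once if any of its starts held a motif. GCGTG, on either strand, was found in 8 of the 18 matched symbols that fell and 10 of the 25 that were tested and did not pass, where 36.22% of all 27305 symbols with a promoter hold it at any start, and in CYP1A1 it lay 57 to 53 bases before the start. The antioxidant element TGACNNNGC was found in 4 of the 18 and 6 of the 25, where 13.22% of all symbols hold it, and TATAAA in 4 of the 18 and 2 of the 25, where 13.05% do. Among the symbols that fell, those with GCGTG included UGT1A4, UGT1A6, UGT1A7, UGT1A8 and UGT1A9. Those with the antioxidant element included UGT1A5 and UGT1A6, and those with TATAAA included UGT1A1. The UGT1A promoters belong to 1 locus and do not count as independent genes. The counts of symbols that fell are therefore not a fair comparison with the shares of all symbols printed beside them. A match shows only that these letters occur.

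Sulfotransferases were mostly low, and the cholesterol sulfotransferase SULT2B1 fell. SULT2B1 (chromosome 19, 49055429 to 49102682) read 0.225, 0.078 and 0.115 FPKM in knockout replicates 1, 2 and 3, and 2.43, 3.30 and 2.48 FPKM in non-target replicates 1, 2 and 3, a knockout mean of 5.09% of the non-target mean (log2 fold change -1.71 ± 0.16, limma, adjusted p = 0.000145). SULT1A1, which conjugates phenols and had the highest level of the class, averaged 4.71 FPKM in knockout and 3.88 FPKM in non-target libraries, and its groups overlapped (adjusted p = 0.517). SULT1C2 read 1.42, 0.434 and 0.326 FPKM in knockout and 4.48, 1.54 and 1.75 FPKM in non-target replicates 1, 2 and 3. Its groups did not overlap, with replicate 1 the highest of its group in both. The gene did not pass (limma, adjusted p = 0.0739). It passed only with the replicate block (limma, adjusted p = 1.975e-07) and in 1 of the 6 fits that left out a library, and the limit of blocked values given above applies. SULT1A3 and SULT1A4, identical copies, had the same value in all 6 libraries, at most 0.192 FPKM.

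The 3 aldo-keto reductases that fell lie on chromosome 10, where AKR1C2 did not pass, and those tested on other chromosomes did not pass. The class reduces aldehydes and ketones, and the AKR1C members also reduce steroids and prostaglandins. AKR1C3 (chromosome 10, 5077546 to 5149878) read 8.53, 2.94 and 4.39 FPKM in knockout replicates 1, 2 and 3, and 20.5, 12.04 and 11.5 FPKM in non-target replicates 1, 2 and 3. Replicate 1 was the highest of its group in both, and AKR1C3 had a log2 fold change of -1.37 ± 0.33 (limma, adjusted p = 0.0238). That call was lost without non-target replicate 1 (adjusted p = 0.0945), knockout replicate 2 (0.101) or knockout replicate 3 (0.102), and with no filter on low values (0.0738). AKR1C1 averaged 1.58 ± 0.549 FPKM in knockout and 4.17 ± 0.500 FPKM in non-target libraries (SD, n = 3 each; adjusted p = 0.00953), and AKR1E2 0.882 ± 0.170 and 2.46 ± 0.210 FPKM in the same order (adjusted p = 0.00479). AKR1C2 had knockout values below all non-target values but did not pass (adjusted p = 0.102), except with the block (adjusted p = 0.00229). AKR1C genes are close paralogs, so the split of reads among them is uncertain. AKR1A1, a widely expressed aldehyde reductase and the most abundant member, averaged 59.7 ± 7.02 FPKM in knockout and 52.1 ± 3.16 FPKM in non-target libraries (adjusted p = 0.517). AKR1B10, an intestinal retinaldehyde reductase, read 2.84, 0.477 and 0.805 FPKM in knockout and 2.88, 2.49 and 3.05 FPKM in non-target replicates 1, 2 and 3. It did not pass (limma, adjusted p = 0.139), and with the block it fell (adjusted p = 0.000170). AKR7A2 on chromosome 1 was higher in knockout libraries without overlap, with means of 18.2 FPKM and 14.0 FPKM in non-target libraries. AKR7A2 did not pass (limma, adjusted p = 0.220), nor with the block (adjusted p = 0.132).

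The aldehyde dehydrogenases held the most abundant of the enzymes that fell. ALDH2 (chromosome 12, 112204691 to 112255336), the mitochondrial enzyme that clears acetaldehyde from alcohol, read 48.1, 38.6 and 46.3 FPKM in knockout replicates 1, 2 and 3, and 112, 127 and 126 FPKM in non-target replicates 1, 2 and 3. The groups did not overlap, and the knockout mean was 36.4% of the non-target mean (log2 fold change -1.44 ± 0.16, limma, adjusted p = 0.000451). ALDH3A1 and ALDH3A2, which oxidise aromatic and fatty aldehydes, lie near each other on chromosome 17. ALDH3A1 (19641297 to 19652256) averaged 11.1 ± 2.12 FPKM in knockout and 24.8 ± 4.49 FPKM in non-target libraries (SD, n = 3 each; adjusted p = 0.0058). ALDH3A2 (19551449 to 19589073) averaged 19.2 ± 2.39 and 34.6 ± 4.99 FPKM in the same order (adjusted p = 0.0157), and its call was lost without non-target replicate 2 (adjusted p = 0.0906), non-target replicate 3 (0.0885) or knockout replicate 2 (0.0641), and with non-target replicates 2 and 3 as 1 sample (0.0889). ALDH7A1, ALDH9A1 and ALDH3B1 did not pass, with log2 fold changes of -0.04, -0.25 and -0.44. ALDH3B1 read 7.21 FPKM in non-target replicate 1, against 2.86 and 3.13 FPKM in replicates 2 and 3. Of the esterases and acetyltransferases, CES2, which hydrolyses irinotecan, averaged 13.3 FPKM in knockout and 14.3 FPKM in non-target libraries, with a 95% interval of the log2 fold change of -0.51 to 0.30. NAT1 averaged 1.07 and 1.19 FPKM in the same order, with an interval of -0.45 to 0.28.

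**Figure D3:**
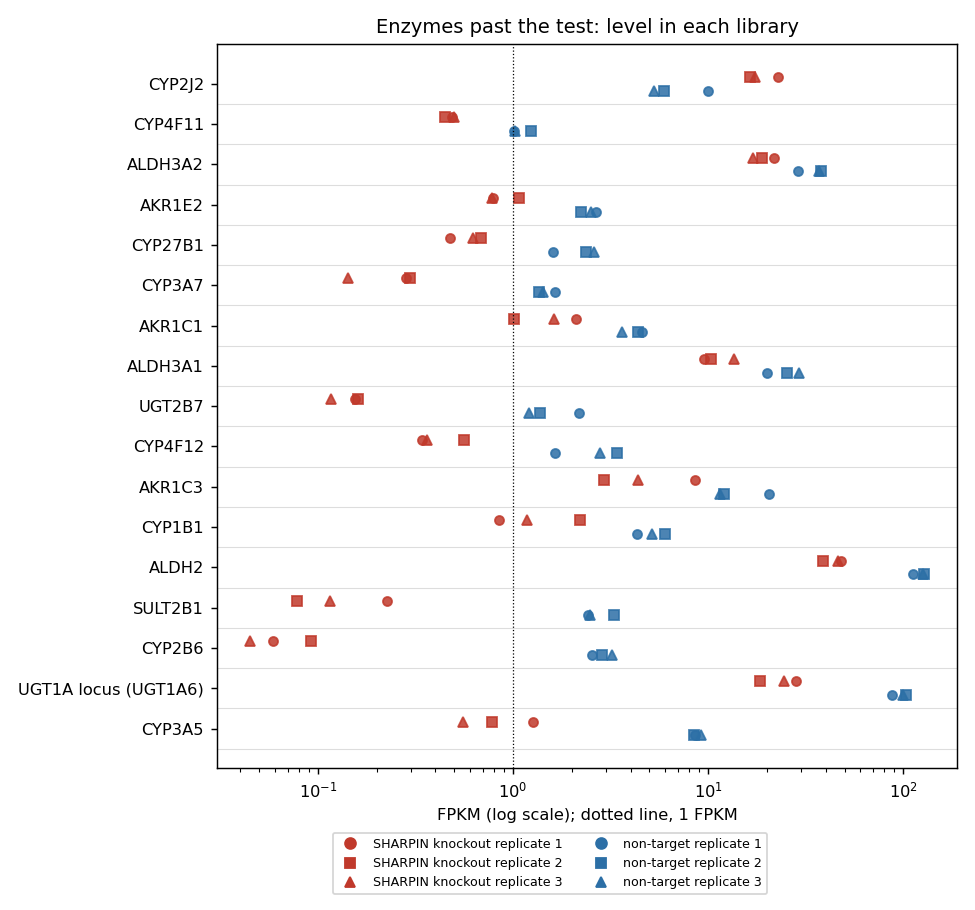
FPKM on a log axis in each library for the 17 loci past the test, ordered by log2 fold change, with SHARPIN knockout in red above non-target in blue and circle, square and triangle for replicates 1, 2 and 3; the dotted line is 1 FPKM. In all 17 rows the colours do not overlap, and CYP2J2 at the top is the 1 row with knockout at the right.

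Of the 16 loci that fell, 13 passed without any single library, and so did CYP2J2; the others are AKR1C3, ALDH3A2 and CYP4F11, with values given above. With the replicate block 21 loci fell and 2 rose, where 11.8% of all tested genes fell and 13.5% rose. The 5 further decreases were AKR1B10, AKR1C2, CYP4V2, GSTM4 and SULT1C2, and the further increase was GSTM3. With no filter on low values 18 fell and 2 rose, where 4.74% of all genes fell and 3.14% rose, the further calls being CES3, CYP2C18 and CYP4X1 lower and CYP27C1 higher. Under a mean of 5 FPKM or more 5 loci fell and 1 rose, of fewer tested, and over all genes 346 fell and 519 rose. The shares of tested loci and genes were not taken under that setting, so the counts have no background beside them.

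Sensors and regulators of these enzymes moved in both directions. Of 33 listed genes, 30 were tested, 5 rose, 7 fell and 18 did not pass, where 6.26% of all tested genes rose and 5.93% fell; the median of their log2 fold changes was 0.04, against 0.02 over all tested genes. The nuclear receptor HNF4A, a main activator of liver and gut genes, averaged 3.84 ± 0.849 FPKM in knockout and 22.0 ± 1.48 FPKM in non-target libraries (SD, n = 3 each; log2 fold change -2.26, adjusted p = 7.75e-05). The related receptor HNF4G averaged 0.870 ± 0.248 and 13.2 ± 0.684 FPKM in the same order (log2 fold change -2.94, adjusted p = 2.61e-05). NR1I2, the pregnane X receptor that is known to induce CYP3A and CYP2B6 genes, was chosen after its values were seen and read 0.670, 0.140 and 0.197 FPKM in knockout and 5.43, 3.93 and 3.46 FPKM in non-target replicates 1, 2 and 3 (adjusted p = 0.000299). It had no knockout library at 1 FPKM. NR1I3, the related constitutive androstane receptor, did not pass (adjusted p = 0.283). The regulator of antioxidant genes NFE2L2 and its inhibitor KEAP1 did not pass either, with 27.1 and 24.5 FPKM in knockout and 33.7 and 26.9 FPKM in non-target libraries on average.

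The aryl hydrocarbon receptor gene AHR rose while CYP1B1 fell and CYP1A1 did not pass; these genes were chosen after their values were seen. AHR read 78.6, 89.0 and 45.7 FPKM in knockout replicates 1, 2 and 3, and 38.4, 23.8 and 24.3 FPKM in non-target replicates 1, 2 and 3 (log2 fold change 1.25 ± 0.28, limma, adjusted p = 0.0166). Other known AHR targets differed in direction, and no list of them was fixed. Its repressor AHRR averaged 15.4 ± 1.72 FPKM in knockout and 8.10 ± 1.37 FPKM in non-target libraries (adjusted p = 0.0115), and TIPARP 45.1 ± 12.1 and 23.0 ± 1.41 FPKM in the same order (SD, n = 3 each; adjusted p = 0.0203). ALDH3A1, a known target too, fell, as given above. The UGT1A locus fell as well, but whether UGT1A6, another known target, changed by itself was not tested. NQO1 averaged 23.8 FPKM in knockout and 40.2 FPKM in non-target libraries (log2 fold change -0.76, limma, adjusted p = 0.0810). Its adjusted p in limma was 8.94e-05 with the block and 0.0381 with equal sums. NQO1 passed in 0 of the 6 fits that left out a library, with adjusted p of up to 0.239. CYP1A1, the classical target, read 0.797, 4.69 and 4.22 FPKM in knockout and 0.843, 3.002 and 2.16 FPKM in non-target replicates 1, 2 and 3. Both replicate 1 libraries were the lowest of their group, the groups overlapped, and the interval of the log2 fold change ran from -0.58 to 1.38. AHR lost its call without knockout replicate 2 (adjusted p = 0.0872) and with no filter (0.0552), and AHRR without knockout replicate 2 (0.0546), non-target replicate 2 (0.0647) or non-target replicate 3 (0.0758), and with non-target replicates 2 and 3 as 1 sample (0.0692). TIPARP lost it without knockout replicate 2 (adjusted p = 0.0838), non-target replicate 1 (0.0538), replicate 2 (0.0569) or replicate 3 (0.0773), when each library was scaled to the same sum (0.0750), and with non-target replicates 2 and 3 as 1 sample (0.0663).

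**Figure D4:**
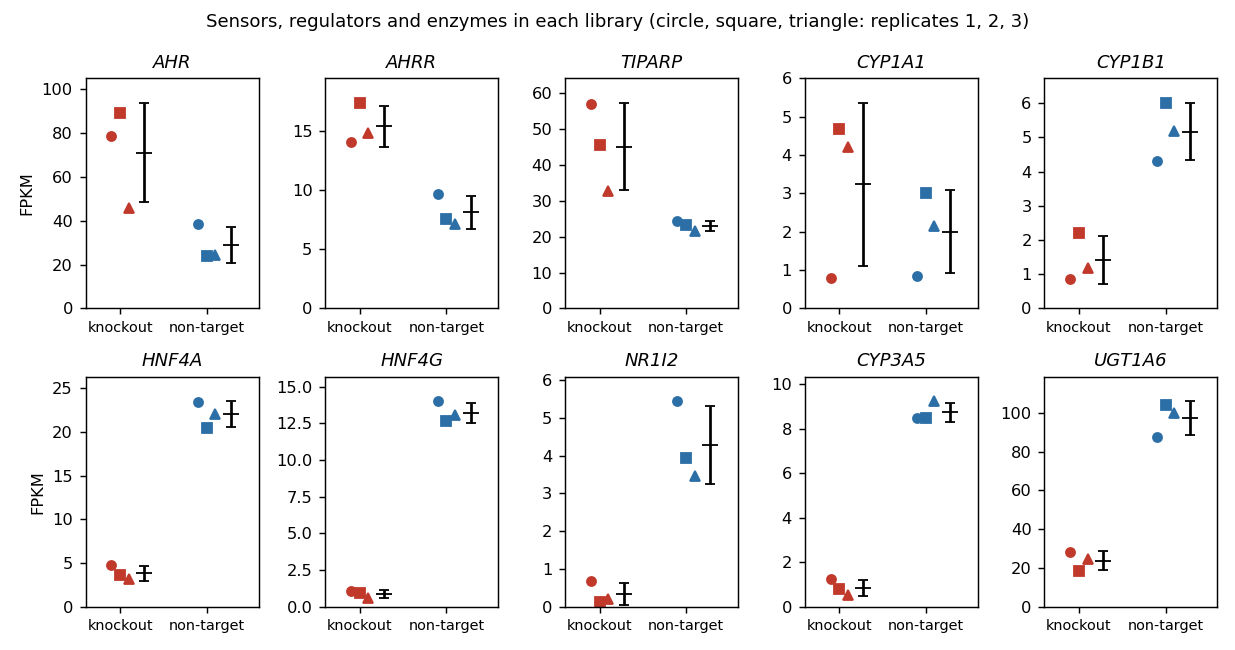
FPKM (linear axes from 0, scaled per panel), knockout left of non-target. The upper row holds AHR with its targets AHRR, TIPARP, CYP1A1 and CYP1B1. The lower row holds HNF4A, HNF4G, NR1I2, CYP3A5 and UGT1A6, which stands for the UGT1A locus. Points are libraries and bars the mean ± SD of 3. In the upper row AHR, AHRR and TIPARP are higher and CYP1B1 lower in knockout, CYP1A1 overlaps, and all 5 genes of the lower row are lower in knockout without overlap.

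Enzymes outside the symbol rule and the suppliers of cosubstrates fell more often than they rose. Of 19 tested other phase I enzymes 6 fell, 1 rose and 12 did not pass, where 5.93% of all tested genes fell and 6.26% rose; 5 passed without non-target replicate 1, 2 or 3. ALDH1A1, a retinaldehyde dehydrogenase, and the cholinesterase BCHE averaged 0.768 and 0.0290 FPKM in knockout and 21.3 and 7.45 FPKM in non-target libraries (limma, adjusted p = 2.43e-05 and 3.03e-05), and the folate enzyme ALDH1L1 0.225 FPKM in knockout and 4.07 FPKM in non-target libraries (adjusted p = 6e-05). BCHE and ALDH1L1 had no knockout library at 1 FPKM. The 1 that rose was the retinaldehyde dehydrogenase ALDH1A3, chosen after its values were seen, at 235, 514 and 382 FPKM in knockout and 180, 159 and 158 FPKM in non-target replicates 1, 2 and 3 (a knockout mean 2.28 times the non-target mean, adjusted p = 0.0221). Its groups did not overlap, but only the fit without knockout replicate 1 of the 6 that left out a library kept the call, and the highest adjusted p of the others was 0.0841. Of 17 tested other phase II enzymes and cosubstrate genes 5 fell, 0 rose and 12 did not pass in limma, where 5.93% of all tested genes fell and 6.26% rose; at an unadjusted p below 0.05, 3 were higher. Only 2 passed without non-target replicate 1, knockout replicate 2 or knockout replicate 3. The microsomal glutathione transferases MGST1 and MGST2 averaged 23.4 and 12.8 FPKM in knockout and 87.3 and 32.7 FPKM in non-target libraries (limma, adjusted p = 0.000164 and 0.00225). MGST3 of the same family went the other way without overlap, at 35.5 FPKM in knockout and 24.1 FPKM in non-target libraries. MGST3 did not pass (limma, adjusted p = 0.0644), except with the block (adjusted p = 0.0108). PAPSS2, which makes the sulfate donor of the SULT enzymes, averaged 4.76 and 11.4 FPKM in knockout and non-target libraries (limma, adjusted p = 0.0150). Its call was lost without knockout replicate 2 (adjusted p = 0.0763), knockout replicate 3 (0.0573) or non-target replicate 1 (0.0634). The other PAPSS gene, PAPSS1, went the other way, at 24.8 FPKM in knockout and 17.3 FPKM in non-target libraries. Its groups overlapped and PAPSS1 did not pass (limma, adjusted p = 0.186), except with the block (adjusted p = 0.0165). UGDH, which makes the glucuronic acid donor of the UGT enzymes and was chosen after its values were seen, averaged 13.2 and 24.2 FPKM in the same order (adjusted p = 0.0183). UGDH lost its call without non-target replicate 1 (adjusted p = 0.0644), non-target replicate 3 (0.0511), knockout replicate 2 (0.0755) or knockout replicate 3 (0.0570). UGP2, also listed for cosubstrate supply, was higher in knockout libraries without overlap, with means of 24.7 FPKM and 16.6 FPKM in non-target libraries. UGP2 did not pass (limma, adjusted p = 0.0898), except with the block (adjusted p = 0.00989).

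Among the electron donors of the P450 enzymes, FDXR, CYB5B and CYB5R3 rose. The list also held ALAS1, PGRMC1 and PGRMC2, which are not counted as donors here. Of its 11 genes tested in limma, 3 rose, 0 fell and 8 did not pass, where 6.26% of all tested genes rose and 5.93% fell. At an unadjusted p below 0.05 0 of the list were lower. The P450 reductase POR averaged 29.8 ± 3.03 FPKM in knockout and 27.3 ± 0.209 FPKM in non-target libraries. The mitochondrial ferredoxin reductase FDXR read 49.5, 44.1 and 61.0 FPKM in knockout and 28.4, 20.1 and 22.8 FPKM in non-target replicates 1, 2 and 3 (limma, adjusted p = 0.00515). The cytochrome b5 gene CYB5B and the reductase CYB5R3 also passed (adjusted p = 0.0325 and 0.0385), but of the 6 fits that each left out 1 library only the 1 without knockout replicate 1 kept CYB5B and only the 1 without knockout replicate 3 kept CYB5R3. In the others the adjusted p was 0.0688 to 0.169 for CYB5B and 0.0513 to 0.215 for CYB5R3, and CYB5R3 also lost its call with equal sums (0.101) or median-ratio scaling (0.0649). Of 13 tested drug transporters 2 rose, 3 fell and 8 did not pass, where 6.26% of all tested genes rose and 5.93% fell. The conjugate exporters ABCC2 and ABCC3 averaged 0.348 and 11.6 FPKM in knockout and 2.13 and 23.7 FPKM in non-target libraries (adjusted p = 0.000975 and 0.0119), and the uptake carrier SLCO3A1 0.610 FPKM in knockout and 4.14 FPKM in non-target libraries (adjusted p = 0.000886). ABCC2 and SLCO3A1 had no knockout library at 1 FPKM. ABCC3 lost its call without knockout replicate 2 (adjusted p = 0.0529). The exporters ABCG2 and ABCC4 rose and were chosen after their values were seen, with means of 30.8 and 11.9 FPKM in knockout and 18.5 and 6.26 FPKM in non-target libraries (limma, adjusted p = 0.0411 and 0.0385). Each kept its call in 2 of the 6 fits that left out a library, with adjusted p of up to 0.211 for ABCG2 and 0.153 for ABCC4, and lost it with equal sums (0.125 and 0.124) or median-ratio scaling (0.0616 and 0.0540).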

How the data were processed

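Poly-A RNA of 6 LoVo libraries was sequenced on a DNBSEQ instrument from dUTP-marked cDNA, per the labels' protocols. TopHat2 2.1.1 aligned reads to hg19 and STAR 2.7.10b gave the FPKM that the authors deposited, per the series' design text. Strand use in counting and the handling of shared fragments are not given in the sources used here, so values of genes with shared exons can repeat. FPKM are relative to each library's total.

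Symbols missing from a library were set to 0. Depth was estimated as the FPKM step of 1 fragment in genes of 1 annotated transcript (65 to 87 of 396 to 479 low values per library lay within 2% of 1 or 2 steps), so it is approximate; whole fragments were not recovered and no count test or counting interval was used. Genes were tested with limma (version 3.58.1, R version 4.3.3) using trend and robust empirical Bayes, two-sided, on log2(FPKM + 1) of all genes at 1 FPKM or more in at least 3 of 6 libraries. Adding 1 understates changes of low genes. Gene coordinates are from GENCODE lifted to GRCh37; 113 of 116 symbols matched.

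The enzymes and lists were chosen with earlier results of these data known. Named are the loci past the test, the most abundant tested member of each class, and up to 3 genes per list with the smallest p. Some genes and a motif are not reported here. Same-numbered libraries of the 2 groups deviated together (correlations across genes of 0.547, 0.309 and 0.331), so the numbers were taken as pairs, though knockout replicate 3 with non-target replicate 2 gave 0.320 and knockout replicate 2 with non-target replicate 3 gave 0.321. Main values come from the unblocked fit. In the blocked fit, with 2 residual degrees of freedom, 86.4% of genes took their spread wholly from other genes of similar level.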

Additional observations from a re-analysis of the deposited data

How the results depend on the processing

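Other settings were a pseudocount of 0.1, no filter, a mean of 5 FPKM or more, scaling to equal sums (TPM) or by median ratio, limma without trend, the replicate number as a block, and each library left out; averaging non-target replicates 2 and 3, and leaving out both replicate 1 libraries, were added after seeing the data. The UGT1A locus fell under every one, with log2 fold changes of -2.13 to -1.84 without single libraries. The loci that fell numbered 13 to 19 without single libraries and 5 under a mean of 5 FPKM or more, where fewer genes were tested. Those that rose numbered 1 without any single library, and 2 with no filter, with the block or without both replicate 1 libraries. Over all genes, 411 to 1041 rose and 500 to 929 fell without single libraries, 1767 and 1542 with the block, 519 and 346 under a mean of 5 FPKM or more, 1329 rose without both replicate 1 libraries and 416 with non-target replicates 2 and 3 as 1 sample. Calls in the lists without single libraries were 5 to 9 for other phase I enzymes, 2 to 7 for other phase II enzymes, 1 to 2 for electron donors, 8 to 14 for regulators and 2 to 5 for transporters. With the block, 11 phase I and 11 phase II genes passed; under a mean of 5 FPKM or more, 3 phase I enzymes and 3 transporters; 3 transporters under TPM or median-ratio scaling, and 8 phase II genes without both replicate 1 libraries. With non-target replicates 2 and 3 as 1 sample, 1 electron donor and 3 transporters passed. SHARPIN turned to 0.17 without knockout replicate 1 and 0.12 without both replicate 1 libraries, CES2 to 0.0297 and 0.1176, and NAT1 to 0.028 and 0.0829, all short of the threshold; without single libraries their lowest values were -0.4061, -0.1893 and -0.1851. Leaving out libraries leaves fewer samples; the cause of other moves was not tested. Low genes limit the rest: at under 0.1 FPKM a gene rests on few fragments at this depth.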
